A study of Homo sapiens with 4 samples.

Results

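The genes described here were the 10 that encode the main chain of cohesin (SMC1A, SMC3, RAD21, STAG1, STAG2), its loader and its release factor (NIPBL, WAPL), the paired ATPases of condensin (SMC2, SMC4), and CTCF, the DNA-binding protein that stops cohesin at its sites. They were chosen by name for their place in these complexes, with earlier results of these data known, and all 10 were found by symbol, with 1 identifier each, among the 61498 genes of the deposited tables. Poly(A) RNA of K562 cells, a human erythroleukaemia line that makes embryonic and foetal globins, was sequenced in 2 libraries of untreated cells and 2 libraries of cells kept for 108 h with 50 µM hemin, the iron-containing porphyrin that pushes the line along the erythroid path. No gene was deleted or introduced in either group, and both groups were grown in the same medium with serum. The labels do not say whether the 2 libraries of a group came from separate cultures, so p-values measure only the spread between these libraries, which may be technical. K562 is a single cancer line in culture and carries the limits of 1 line. The 4 libraries held between 7455447 and 8241534 expected counts, which are estimated reads per gene.

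Cohesin is a ring. SMC1A and SMC3 form its 2 long arms, RAD21 closes it, and STAG1 or STAG2 is bound to RAD21 as the last of the core subunits, 1 or the other in each ring. NIPBL loads the ring onto DNA and drives it to draw out loops, CTCF halts the loops at sites it binds, and WAPL opens the ring and lets it go. Condensin is built on a like pair of arms, SMC2 and SMC4, and folds chromosomes for mitosis. In red cell precursors CTCF and cohesin are known for the loops that surround the globin gene clusters.

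The promoters of the alternative subunits STAG1 and STAG2 and of CTCF are shown because STAG1 and CTCF gave the largest fold changes of the 10 genes and STAG2 is the partner that STAG1 is measured against. Sequences are from RefSeq on GRCh38.p14, 5′ to 3′ along the gene's own strand. Each is the longest stretch without an annotated exon in the 250 bases before the gene's first listed RefSeq start. The STAG2 stretch lies past the annotated start of STAG2 at 123960212 and before its first listed RefSeq start at 123960560. Capitals mark matches, on either strand, to the GC box GGGCGG, the CCAAT box CCAAT (read as ATTGG on the other strand) and a CTCF core that reads CC, any 3 bases, AG, any 2 bases, GGC.
STAG1, chr3:136752404-136752628, minus strand: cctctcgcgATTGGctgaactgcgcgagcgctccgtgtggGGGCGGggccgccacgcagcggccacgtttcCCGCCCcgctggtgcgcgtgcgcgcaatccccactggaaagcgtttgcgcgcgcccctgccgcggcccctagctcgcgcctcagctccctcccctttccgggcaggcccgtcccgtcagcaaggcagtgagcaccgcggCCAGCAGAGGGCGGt
STAG2, chrX:123960310-123960518, plus strand: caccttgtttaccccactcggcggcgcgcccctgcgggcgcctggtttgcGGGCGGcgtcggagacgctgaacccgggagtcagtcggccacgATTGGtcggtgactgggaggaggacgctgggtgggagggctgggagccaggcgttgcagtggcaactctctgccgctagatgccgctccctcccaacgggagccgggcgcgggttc
CTCF, chr16:67562310-67562466, plus strand: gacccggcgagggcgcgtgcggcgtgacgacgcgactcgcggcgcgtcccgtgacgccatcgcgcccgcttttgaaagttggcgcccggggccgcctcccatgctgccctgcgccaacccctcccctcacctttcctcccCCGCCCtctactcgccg
The last capitals of the STAG1 window hold a CTCF core that overlaps a GC box. The full 250 bases before each start, exons included, were also read. The set of RefSeq promoters used here held 9 of the 10 genes, with 14 starts in all, and did not hold RAD21. The 14 windows are not all separate, since the SMC1A starts, 53422728 and 53422654, are close enough for their windows to overlap. A GC box lay in 11 of the 14 windows (8 of the 9 genes), where 42.6% of 35116 RefSeq promoter windows of that length hold one. A CCAAT box lay in 4 of the 14 (3 genes), where 32% of all windows hold one. The CTCF core lay in 4 of the 14 windows, of STAG1, STAG2 and NIPBL, where 8.9% of all windows hold it. The YY1 core AAGATGGC lay in 1 window, of SMC4, where 1.36% hold it, while neither the E-box CACGTG (6.34% of all windows) nor the TATA box TATAAA (10.7%) lay in any of the 14. These matches describe letters and were not tested for binding.

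Across the 10 genes, SMC1A, STAG1 and CTCF rose with hemin, and none fell. The test was edgeR's quasi-likelihood test on expected counts, fitted over 14458 genes with Benjamini-Hochberg adjustment and called at an adjusted p under 0.05. Over all genes tested 7.00% were called higher (1012) and 7.14% lower (1033), and scaling by library size alone turned that split to 729 higher and 1358 lower. All 10 genes had a positive log2 fold change in counts, from 0.0066 for RAD21 to 0.43 for STAG1, with a median of 0.11 against a median of -0.0048 over all genes tested. At an unadjusted p under 0.05 stood 5 of the 10, where 29.4% of all genes did. In TPM, which is scaled for effective length, both hemin libraries lay above both untreated ones for 4 of the 10 genes (SMC1A, STAG1, STAG2, CTCF) and below for none, against 21.3% and 28.5% of all genes tested, or 49.8% in either direction. The sign was not uniform in mean TPM, which was lower with hemin for NIPBL (-7.93%), SMC2 (-3.86%) and SMC4 (-0.34%). Since these are bulk samples, more or less RNA per cell and more or fewer cells of a given state cannot be told apart.

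**Figure D1:**
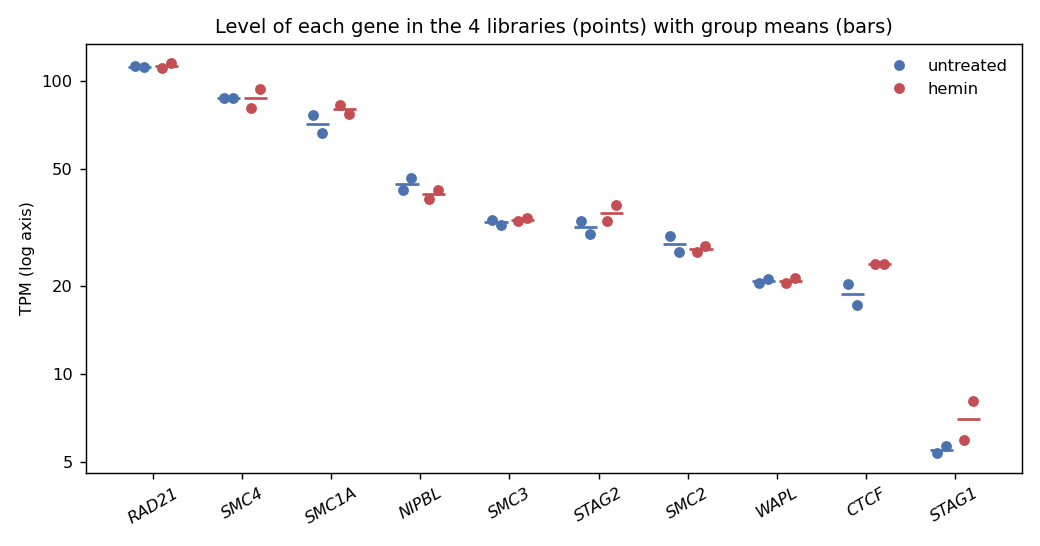
Level in TPM (log axis) of the 10 genes in the 2 untreated (blue) and 2 hemin (red) libraries; points are libraries, bars are group means, and genes run from the highest to the lowest level. RAD21 lies above 110 TPM in all 4 libraries and STAG1 at or below 8.08 TPM, and the red points of CTCF, STAG1, SMC1A and STAG2 lie above their blue points.

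The 10 genes covered a wide range of levels, and the order of levels was nearly the same in the 2 groups. In untreated cells RAD21 was highest at 112 ± 0.594 TPM (SD, n = 2), followed by SMC4 at 87.9 ± 0.198 TPM, SMC1A at 71.8 ± 7.29 TPM and NIPBL at 44.6 ± 2.98 TPM. Below them stood SMC3 at 33.0 ± 1.03 TPM, STAG2 at 31.7 ± 2.19 TPM and SMC2 at 27.9 ± 2.60 TPM. The lowest were WAPL at 20.8 ± 0.523 TPM, CTCF at 18.8 ± 2.24 TPM and STAG1 at 5.51 ± 0.219 TPM. Of the neighbours in this order only SMC3 and STAG2 overlapped between libraries in untreated cells. In hemin cells SMC3 and STAG2 overlapped again, so did SMC4 and SMC1A, and the means of STAG2 and CTCF stood above those of SMC3 and WAPL. By mean TPM over the 4 libraries RAD21 was at the 92.1 percentile of the genes tested, CTCF at the 59.4 and STAG1 at the 29.9.

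Of the 3 subunits that form the closed ring, SMC1A rose while SMC3 and RAD21 gave no call. SMC1A (ENSG00000072501, GRCh38 chromosome X, 53374149 to 53422728, minus strand), one arm of the ring, had 1280 and 1258 expected counts in untreated cells and 1374 and 1548 in hemin cells. Its TPM were 76.9 and 66.6 untreated and 83.4 and 77.2 with hemin, so both hemin libraries lay above both untreated ones, by a narrow margin. The log2 fold change was 0.19 (SE 0.046, 95% interval 0.09 to 0.30), with an adjusted p of 0.0234 in edgeR. The call rested on single libraries, since leaving out untreated replicate 1 gave an adjusted p of 0.113 and leaving out hemin replicate 2 gave 0.1085, within a range of 0.0029 to 0.426 over 15 alternative settings, 10 of which kept the call.

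SMC3 (ENSG00000108055, chromosome 10, 110567684 to 110606048, plus strand), the other arm, had TPM of 33.7 and 32.3 untreated and 33.4 and 34.0 with hemin. The groups overlapped in TPM, and the log2 fold change in counts was 0.09 (SE 0.0537, 95% interval -0.03 to 0.21), with an edgeR adjusted p of 0.292; leaving out untreated replicate 1 took the fold change to 0.054. RAD21 (ENSG00000164754, chromosome 8, 116845934 to 116874776, minus strand), the closing subunit that separase cuts at anaphase, had TPM of 113 and 112 untreated and 111 and 115 with hemin. Its groups overlapped too. RAD21 had the smallest fold change of the 10 genes, 0.0066 on the log2 scale (SE 0.0431, 95% interval -0.09 to 0.10), an interval that leaves room for a change of either sign up to those bounds.

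STAG1 rose and gave the largest fold change of the 10 genes, while STAG2, the more abundant alternative, gave no call. STAG1 (ENSG00000118007, chromosome 3, 136336236 to 136752403, minus strand) had 149 and 160 expected counts untreated and 182 and 238 with hemin, the fewest of the 10 genes. Its TPM were 5.35 and 5.66 untreated and 5.95 and 8.08 with hemin, so the groups did not overlap, but most of the difference came from hemin replicate 2. The log2 fold change was 0.43 (SE 0.121, 95% interval 0.16 to 0.70), with an edgeR adjusted p of 0.0438, and 7 of 15 alternative settings kept the call, over a range of 0.00462 to 0.509. Leaving out untreated replicate 1 gave an adjusted p of 0.204, leaving out untreated replicate 2 gave 0.0788, and leaving out hemin replicate 2 gave 0.235 with a log2 fold change of 0.29. It was 0.0543 with scaling by library size alone and 0.15 with DESeq2.

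STAG1 is also the gene of the 10 whose reads are least certain. The posterior SD of its count, which measures how reads shared between genes were divided, reached 2.97% of the count, against at most 0.935% for the other 9. In the annotation 1661 of its 7843 exonic bases (21.2%) overlap PCCB, a mitochondrial carboxylase subunit gene on the opposite strand that was far more abundant. PCCB had TPM of 100.1 and 102 untreated and 81.4 and 86.3 with hemin, with a log2 fold change in counts of -0.14 (SE 0.0503, edgeR adjusted p 0.0991). The RSEM options that the study lists hold none for strand, so by those options reads of STAG1 and PCCB in the shared bases were not told apart by strand, and the part of PCCB reads in the STAG1 counts was not tested.

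STAG2 (ENSG00000101972, chromosome X, 123960212 to 124422664, plus strand) had TPM of 33.2 and 30.1 untreated and 33.4 and 37.8 with hemin. The groups lay close together in TPM but did not overlap. The log2 fold change in counts was 0.14 (SE 0.0552, 95% interval 0.02 to 0.27), with an edgeR adjusted p of 0.118, and none of the 15 alternative settings called it. The interval, unlike the adjusted p, takes no account of the number of genes tested. Leaving out hemin replicate 2 took the fold change to 0.09.

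Neither the loader nor the release factor was called. NIPBL (ENSG00000164190, chromosome 5, 36876769 to 37066413, plus strand), which is mutated in Cornelia de Lange syndrome, had 1770 and 1622 expected counts untreated and 1677 and 1908 with hemin. Its TPM were 42.5 and 46.7 untreated and 39.6 and 42.6 with hemin, a mean that was lower by 7.93%, while the log2 fold change in counts was 0.07 (SE 0.045, 95% interval -0.03 to 0.17, edgeR adjusted p 0.338). The 2 scales thus gave opposite signs for NIPBL, and the groups overlapped on both. The fold change in counts was 0.038 with hemin replicate 2 left out and 0.11 with hemin replicate 1 left out. WAPL (ENSG00000062650, chromosome 10, 86435256 to 86521792, minus strand) had the smallest difference in mean TPM of the 10 genes (0.31%), with 20.4 and 21.2 untreated and 20.5 and 21.2 with hemin, and its log2 fold change in counts was 0.08 (SE 0.0548, 95% interval -0.04 to 0.20, edgeR adjusted p 0.39).

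Of the condensin arms SMC2 stood near no change and SMC4 just missed the threshold. SMC2 (ENSG00000136824, chromosome 9, 104094260 to 104141419, plus strand) had TPM of 29.7 and 26.0 untreated and 26.1 and 27.4 with hemin, and its groups overlapped. Its log2 fold change in counts was 0.03 (SE 0.055, 95% interval -0.09 to 0.16, edgeR adjusted p 0.756). SMC4 (ENSG00000113810, chromosome 3, 160399274 to 160434954, plus strand) had 1729 and 1709 expected counts untreated and 1820 and 1974 with hemin, a log2 fold change of 0.13 (SE 0.0432, 95% interval 0.04 to 0.23) and an edgeR adjusted p of 0.0693. With no filter on low counts the adjusted p was 0.0473, with a filter of at least 20 counts 0.047 and with posterior mean counts 0.0485, within a range of 0.047 to 0.974 over the 15 alternative settings. In TPM the SMC4 groups overlapped, with 88.1 and 87.8 untreated and 80.8 and 94.4 with hemin, and the mean was lower with hemin by 0.34%. SMC4 shares 1553 of its 8164 exonic bases (19.0%) with TRIM59 on the opposite strand, at 10.91 to 13.03 TPM, and 243 bases with IFT80, at 15.7 to 24.8 TPM. IFT80 itself rose, by 0.42 on the log2 scale (SE 0.113, edgeR adjusted p 0.0379), while TRIM59 gave 0.07 (adjusted p 0.69), and their part in the SMC4 counts was not tested.

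CTCF rose. CTCF (ENSG00000102974, chromosome 16, 67562467 to 67639177, plus strand) had 415 and 349 expected counts untreated and 463 and 498 with hemin. Its TPM were 20.3 and 17.2 untreated and 23.8 and 23.7 with hemin, so both hemin libraries lay above both untreated ones and the hemin mean was higher by 26.5%. The log2 fold change in counts was 0.32 (SE 0.0756, 95% interval 0.15 to 0.49), with an edgeR adjusted p of 0.0222, and 10 of 15 alternative settings kept the call over a range of 0.000847 to 0.261. Without untreated replicate 2, the lower of the 2 untreated libraries, the log2 fold change was 0.25 and the adjusted p 0.114, and DESeq2 gave 0.0549. An antisense long noncoding RNA, ENSG00000237718, shares 13.1% of the exonic bases of CTCF but was at 0.74 TPM or less in all 4 libraries.

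**Figure D2:**
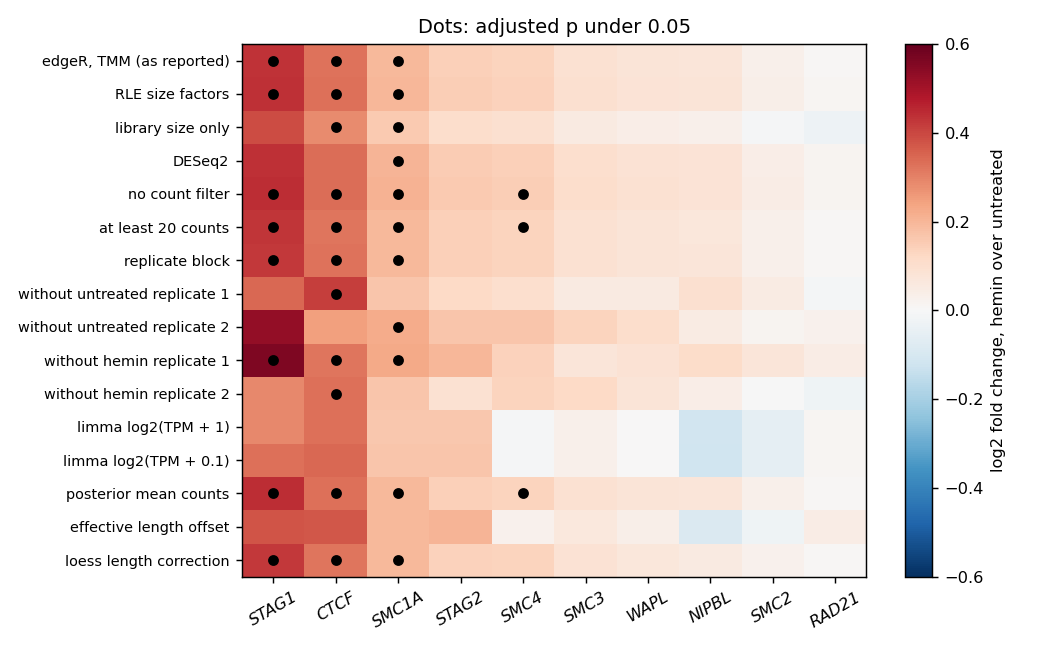
Log2 fold change of the 10 genes (columns) under the reported test and 15 alternative settings (one to a line, names at left); colour gives the fold change, red higher and blue lower with hemin, and a dot marks an adjusted p under 0.05. STAG1, CTCF and SMC1A are red in every line but carry dots in 7, 10 and 10 of the 15 alternatives, and SMC4 carries a dot in 3.

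Ratios within a library were taken for 7 pairs of these genes, since a ratio of TPM is free of the scaling between libraries. The test was an exact two-sided permutation test over the 4 libraries, whose smallest possible p is 0.333, so no ratio could pass 0.05. STAG1 relative to STAG2 was 0.161 and 0.188 untreated and 0.178 and 0.214 with hemin, a difference of 0.17 on the log2 scale whose groups overlapped (exact permutation p = 0.667). In every library there was thus far less STAG1 than STAG2 RNA per length. CTCF relative to RAD21 was 0.18 and 0.154 untreated and 0.214 and 0.205 with hemin, a log2 difference of 0.33 with no overlap (exact permutation p = 0.333, adjusted 0.778 over the 7 ratios). WAPL relative to NIPBL was 0.48 and 0.453 untreated and 0.518 and 0.498 with hemin, a log2 difference of 0.12 with no overlap (exact permutation p = 0.333), but of 0.0073 when expected counts replaced TPM.

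The other ratios overlapped between the groups. SMC1A stood at 2.17 ± 0.154 times SMC3 untreated (SD, n = 2) and 2.39 ± 0.162 times with hemin. RAD21 stood at 3.41 ± 0.0879 and 3.36 ± 0.0421 times SMC3. SMC4 stood at 2.67 ± 0.0769 and 2.60 ± 0.249 times SMC3. The arms of condensin were the least even of the SMC pairs, with SMC2 at 0.317 ± 0.0288 of SMC4 untreated and 0.307 ± 0.0232 with hemin.

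**Figure D3:**
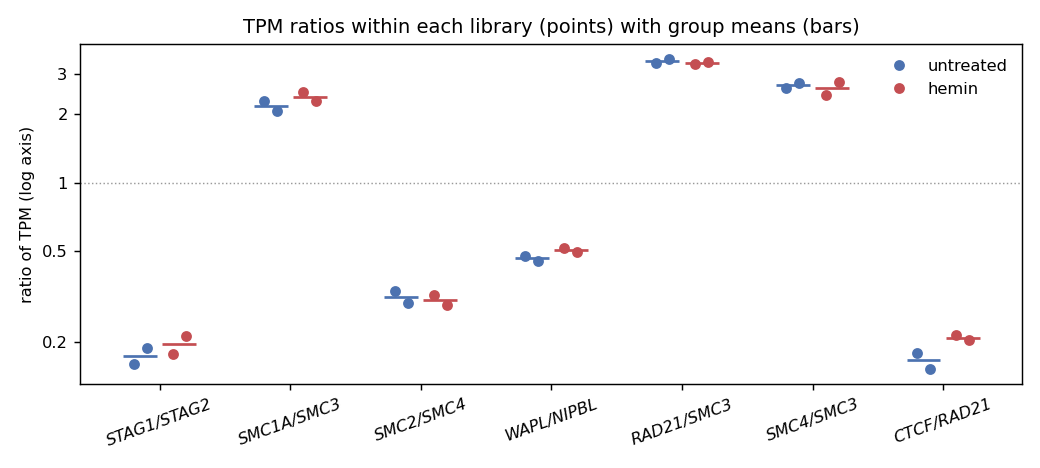
Ratio of TPM between pairs of the genes within each library (log axis), untreated in blue and hemin in red; points are libraries, bars are group means and the dotted line marks equal levels. The red points lie above the blue ones without overlap for WAPL/NIPBL and CTCF/RAD21, while STAG1/STAG2 stays between 0.161 and 0.214 in the 4 libraries.

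The full length of a gene is the mean length of its transcripts weighted by their estimated share. The effective length, here 48.4 bases shorter in all libraries, moves like it when the mix of transcripts does. Effective length was read as a second measure of the same genes, with no test. NIPBL, with 9 annotated transcripts of 452 to 10425 bases, had 7419 and 6413 bases untreated and 7844 and 7555 with hemin. Both hemin libraries lay above both untreated ones, and the mean was longer by 11.3%, or by 3.78% with untreated replicate 2 left out. CTCF was shorter with hemin in both libraries, at 3602 and 3546 bases against 3635 and 3753 (the mean fell by 3.24%), and so was RAD21, at 3518 and 3507 bases against 3576 and 3627 (the mean fell by 2.48%). These 3 of the 10 did not overlap between the groups, close to the 29.9% of all genes tested that did not. SMC4 had 3499 and 3597 bases untreated and 4169 and 3523 with hemin, so its longer mean (by 8.398%) came from hemin replicate 1 alone. Over the 10 genes 6 means were longer and 4 shorter. NIPBL, SMC2 and SMC4, 3 of the 6 genes with a longer mean, had a positive fold change in counts and a lower mean TPM. The lengths are estimates, and no error within a library was read for them.

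**Figure D4:**
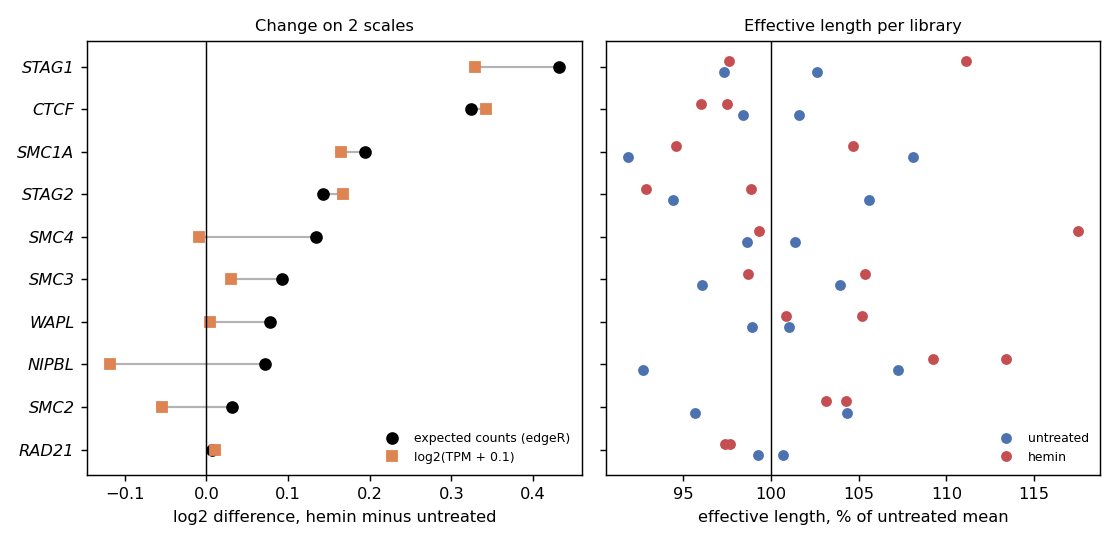
Left, log2 difference between hemin and untreated cells of the 10 genes in expected counts (black circles, edgeR) and in log2(TPM + 0.1) (orange squares); right, effective length in each library as a percentage of the untreated mean, untreated in blue and hemin in red. The squares of NIPBL, SMC2 and SMC4 lie left of zero and their circles right of it, and the red points of NIPBL lie to the right of its blue points.

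The same fit was read for 42 other genes, of which 40 were tested. They were other subunits and regulators of cohesin and condensin, SMC5/6 genes with SMCHD1, architectural factors and genes of the mitotic chromosome scaffold. There 6 rose (15%, against 7.00% of all genes tested), 2 fell (5%, against 7.14%), and the median log2 fold change was 0.03. The group with the most calls was the CTCF paralog and other architectural factors, where 4 of 7 rose and 1 fell, with a median of 0.21. PATZ1, a zinc finger factor, had 3.65 and 3.14 TPM untreated and 5.61 and 5.04 with hemin, a log2 fold change of 0.60 (SE 0.164, edgeR adjusted p 0.0409). ADNP, a partner of chromatin remodellers, rose by 0.25 on the log2 scale (SE 0.0572, adjusted p 0.0192), YY1, a zinc finger protein that can bridge enhancers and promoters, by 0.25 (SE 0.0606, adjusted p 0.0273), and MAZ, a zinc finger protein found beside CTCF at some boundaries, by 0.21 (SE 0.043, adjusted p 0.0138). CTCFL, the germ-line paralog of CTCF that K562 cells also express, went the other way, from 43.7 and 42.9 TPM to 32.1 and 31.9 TPM, a log2 fold change of -0.36 (SE 0.054, edgeR adjusted p 0.00345). CTCFL was thus above CTCF in TPM in each of the 4 libraries, with a smaller gap in hemin cells. ZNF143 gave -0.33 (SE 0.118, edgeR adjusted p 0.0963), without a call.

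Leaving out 1 library at a time kept the CTCFL call each time, and lost the others at least once. Without untreated replicate 1 the edgeR adjusted p was 0.0731 for MAZ, 0.0985 for ADNP, 0.133 for YY1 and 0.0869 for PATZ1. Leaving out untreated replicate 2 gave 0.0553 for ADNP, 0.0734 for YY1 and 0.151 for PATZ1. Leaving out hemin replicate 1 gave 0.058 for ADNP and 0.125 for PATZ1, and leaving out hemin replicate 2 gave 0.152 for YY1.

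Among 11 cohesin regulators 1 rose (9.09%, against 7.00% of all genes tested) and 1 fell (9.09%, against 7.14%). These shares are near those over all genes, and the median log2 fold change was 0.02. PDS5A, which binds the ring and works with WAPL, had 49.4 and 50.8 TPM untreated and 62.6 and 56.4 with hemin, a log2 fold change in counts of 0.17 (SE 0.0427, edgeR adjusted p 0.0301). Each library left out in turn took the adjusted p of PDS5A above 0.05, to between 0.0599 and 0.117. PTTG1, the securin that holds separase back until anaphase, fell from 151 and 161 TPM to 115 and 119 TPM, a log2 fold change in counts of -0.33 (SE 0.0666, edgeR adjusted p 0.0115), with an adjusted p of 0.0718 without untreated replicate 2. HDAC8, which deacetylates SMC3, gave the highest value of the list, 0.23 (SE 0.111, adjusted p 0.212), without a call.

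Of 6 non-SMC condensin subunits only NCAPH rose (16.7%, against 7.00% of all genes tested), the subunit that closes the ring of condensin I. NCAPH had 65.1 and 57.3 TPM untreated and 85.6 and 71.2 with hemin, with a log2 fold change in counts of 0.33 (SE 0.0709, edgeR adjusted p 0.0165). Leaving out untreated replicate 1 gave an adjusted p of 0.0951, and leaving out hemin replicate 1 gave 0.055. NCAPG2, of condensin II, gave the lowest value, -0.14 (SE 0.0597, adjusted p 0.162), and the median of the 6 was 0.02.

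No gene was called by edgeR in the other lists. Of 9 genes of the SMC5/6 complex with SMCHD1, the median log2 fold change was 0.02. Values ran from -0.11 for SLF1 (adjusted p 0.556) to 0.23 for NSMCE2, a SUMO ligase (adjusted p 0.16). Of the 9, 1 had an unadjusted p under 0.05 in edgeR, where 29.4% of all genes tested did. Of 5 genes of the mitotic chromosome scaffold the median was 0.09, from 0.04 for KIF4A to 0.20 for MCPH1 (adjusted p 0.181), again with 1 at an unadjusted p under 0.05, and MKI67, the coat protein of mitotic chromosomes, gave 0.09; DESeq2 called none of either list. Of 4 meiotic cohesin subunits, SMC1B (0 to 2 counts a library) and RAD21L1 (0.5 to 3 counts) were too low to be tested. STAG3, the meiotic counterpart of STAG1 and STAG2, gave -0.08 (adjusted p 0.804) at 4.56 to 7.52 TPM and REC8, that of RAD21, gave -0.55 (adjusted p 0.443) at 1.12 to 3.72 TPM.

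**Figure D5:**
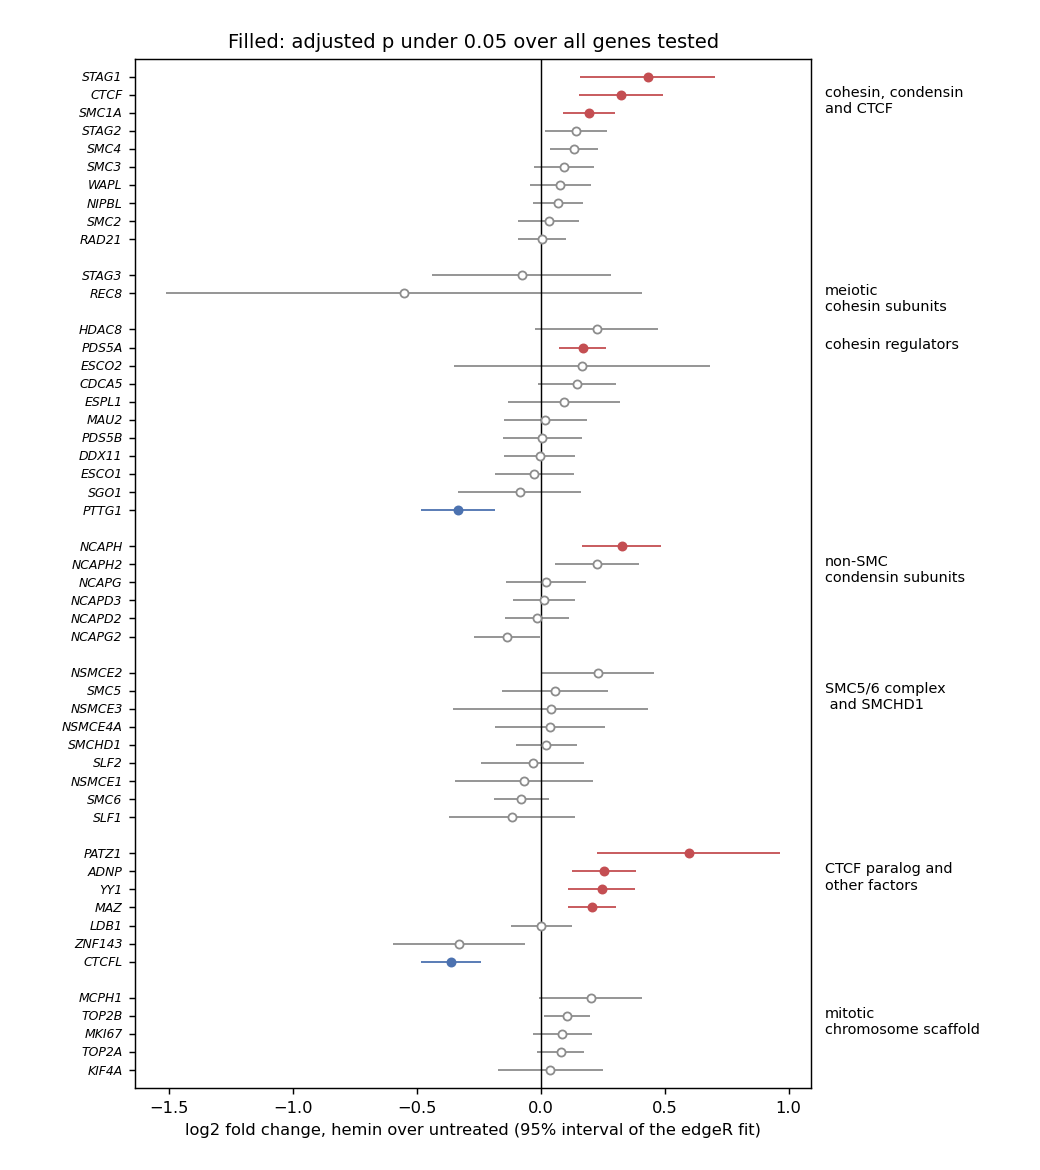
Log2 fold change, hemin over untreated, of the 10 genes and the 40 tested genes of the related lists, grouped by role. Points are edgeR estimates on expected counts and lines their 95% intervals, not adjusted over the genes tested. Filled points have an adjusted p under 0.05 over all genes tested (red higher, blue lower). The filled points are STAG1, CTCF, SMC1A, PDS5A, NCAPH, PATZ1, ADNP, YY1 and MAZ to the right and PTTG1 and CTCFL to the left.

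Markers of the line and of cycling cells were read beside these values, because cohesin loading and condensin levels follow the cell cycle. Of 12 markers of cycling cells 3 rose (25%, against 7.00% of all genes tested) and 1 fell (8.33%, against 7.14%). The median log2 fold change was -0.01, and 5 of the 12 had a positive value. The summed level was 959 and 970 TPM untreated and 1030 and 1025 with hemin. Within that sum MCM5 alone went from a mean of 90.6 TPM untreated to 146 TPM with hemin. The markers that rose belong to DNA replication: MCM5 (0.71, SE 0.0518, edgeR adjusted p 0.000118), MCM2 (0.27, adjusted p 0.00782) and PCNA (0.24, adjusted p 0.012). The mitotic kinase AURKB fell by 0.39 on the log2 scale (SE 0.103, edgeR adjusted p 0.0343), while CCNB1 gave -0.01 and CDK1 -0.09. When untreated replicate 1 was left out the adjusted p was 0.0529 for MCM2, 0.0699 for PCNA and 0.0649 for AURKB, and for AURKB leaving out untreated replicate 2 gave 0.175 and leaving out hemin replicate 1 gave 0.139. The part of the cell cycle in the values of the 10 genes was not tested.

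All 14 erythroid markers were found in every library, with a summed level of 6627 and 6834 TPM untreated and 8751 and 8215 with hemin. Of them 5 rose (35.7%, against 7.00% of all genes tested) and 1 fell (7.14%, against 7.14%). The alpha-like globins HBA1, HBZ and HBA2 rose by 0.80, 0.70 and 0.70 on the log2 scale, the embryonic beta-like globin HBE1 by 0.41 (SE 0.0391, edgeR adjusted p 0.000445) and TFRC, the transferrin receptor, by 0.23 (adjusted p 0.0067). The posterior SD of the count reached 9.457% for HBA2, 4.985% for HBA1 and 3.313% for HBZ, so their separate values are less certain. The marker that fell was ALAS2, the first enzyme of heme synthesis in erythroid cells, with a log2 fold change of -0.25 (SE 0.0607, edgeR adjusted p 0.0252). The ALAS2 call was lost with untreated replicate 1 (adjusted p 0.0894), untreated replicate 2 (0.103) or hemin replicate 2 (0.147) left out, within a range of 0.00386 to 0.403 over the 15 settings. GATA1 gave 0.04 (adjusted p 0.689). HBG2, a foetal globin, gave 0.19 (adjusted p 0.0728), but 4 of 15 alternative settings called it, over a range of 0.000505 to 0.3455; leaving out hemin replicate 2 gave 0.28 (adjusted p 0.00128) and leaving out hemin replicate 1 gave 0.09 (adjusted p 0.281). Megakaryocyte and lymphoid markers were low. The 7 megakaryocyte markers summed to 3.97 to 7.35 TPM with 3 at 0, and the 6 lymphoid markers to 0.54 to 3.04 TPM with 3 at 0. The 7 myeloid markers summed to 43.5 to 53.3 TPM, 2 of them at 0 (MPO and ELANE) and nearly all from CD33, and the 6 stromal and epithelial markers to 47.8 to 54.0 TPM, nearly all from EPCAM, with CDH1 at 0. The 10 cohesin, condensin and CTCF genes summed to 463 and 445 TPM untreated and 458 and 482 with hemin, so the summed level overlapped between the groups.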

How the data were processed

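Reads of 50 bases were trimmed by the authors with Trimmomatic 0.39 and quantified with RSEM 1.3.1 and STAR 2.7.5c on Ensembl 106 (GRCh38). The deposited expected counts are RSEM's estimated reads per gene, not normalized; deposited TPM are scaled by effective length, and lengths, also deposited, are given in bases for each gene. The gap between full and effective length was 48.4 bases in all libraries, shorter than the mean fragment length stated for the run; the reason was not tested. Depth was 7455447 to 8241534 expected counts, 12.8% to 13.6% of them mitochondrial. FPKM tables and the authors' own comparison tables of fold changes and p-values were not used.

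Counts were rounded, filtered with filterByExpr (14458 of 61498 genes), given TMM factors and fitted in edgeR 4.0.16 (R 4.3.3; quasi-likelihood test, condition as the only term; common dispersion 0.001179). Intervals are 95%. Coordinates and exons came from GENCODE 44 (99.84% of identifiers matched), promoters from RefSeq GRCh38.p14. Alternatives were RLE factors, library size alone, DESeq2 1.42.0, no count filter or at least 20 counts, posterior mean counts, limma 3.58.1 on TPM with a pseudocount of 1 or 0.1 before log2, effective length as an offset, a loess length correction (span 0.4), a block for replicate number and leaving out each library.

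The 10 genes and the lists were chosen with earlier results of these data known. Named were all 10 genes, in each related list the called genes (up to 4 a direction) and its extremes, and 8 markers with the extremes of the cycling-cell list. MCM2, ZNF143, HBA1, HBA2, HBZ, ALAS2, PCCB, TRIM59, IFT80 and the markers named for their level were named after their values were seen.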

Additional observations from a re-analysis of the deposited data

How the results depend on the processing

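The log2 fold changes of SMC1A, SMC3, STAG1, STAG2, WAPL and CTCF kept their sign under all 15 alternatives, and none of the 10 genes was called lower under any of them. Of the 10 genes DESeq2 called 1 (SMC1A), and of the 40 related genes it called 3 higher and 2 lower. Over the 12942 genes to which it gave an adjusted p, it called 589 higher and 479 lower. Both limma fits and the effective length offset called 0 of the 10 genes and 0 of the related genes in either direction; over all genes limma called 14 higher and 33 lower on log2(TPM + 1) and 15 and 34 on log2(TPM + 0.1), and the offset called 94 and 135. With 1 library left out, where the lone library of a group is assumed to vary like the other group's, the calls among the 10 genes ranged from 1 to 3, those among related genes from 0 to 4 higher and from 1 to 2 lower, and those over all genes from 469 to 934 higher and from 512 to 884 lower.

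Signs that turned were mostly near 0 or on the TPM scale. With library size alone RAD21 gave -0.032, SMC2 -0.007 and KIF4A -0.0008. On log2(TPM + 1), log2(TPM + 0.1) and with the offset, in that order, NIPBL gave -0.12, -0.12 and -0.087, SMC2 -0.052, -0.054 and -0.024, HDAC8 -0.12, -0.13 and -0.095, MKI67 -0.099, -0.10 and -0.054, SLF1 0.20, 0.21 and 0.25, and REC8 0.52, 0.75 and 0.64; SMC4 (-0.009 and -0.0092) and MCPH1 (-0.0008 and -0.0006) turned in the 2 limma fits, and CCNB1 (0.014) and ZNF143 (0.0285) with the offset. The cause was not tested. REC8 had no value with at least 20 counts. SMC4/SMC3 gave 0.042 from expected counts. With 1 library left out the log2 differences ranged from -0.0264 to 0.045 for RAD21 (below 0 without untreated replicate 1, -0.0118, or hemin replicate 2, -0.0264), from -0.0039 to 0.072 for SMC2, from 0.05 to 0.13 for SMC3, from 0.09 to 0.20 for STAG2, from 0.04 to 0.11 for NIPBL, from -0.21 to 0.051 for STAG3, from -1.004 to 0.14 for REC8, from -0.076 to 0.17 for KIF4A, from -0.0021 to 0.085 for GATA1, from -0.0403 to 0.019 for CCNB1, from -0.14 to 0.048 for SMC2/SMC4, from -0.046 to 0.0063 for RAD21/SMC3, from -0.14 to 0.058 for SMC4/SMC3, from 0.03 to 0.30 for STAG1/STAG2, from 0.06 to 0.21 for SMC1A/SMC3, from 0.08 to 0.17 for WAPL/NIPBL and from 0.22 to 0.45 for CTCF/RAD21, and the median effective length difference from -1.20% to 5.00%.

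Library numbers are shared between the groups, but the deviations of same-numbered libraries correlated at only 0.0048 over 14458 genes, with 2 pairs, so the numbers were not taken to pair the libraries. A replicate block called 855 genes higher and 886 lower, kept the 3 calls among the 10 genes and left 4 higher and 2 lower among the related genes.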
